A study of Homo sapiens with 12 samples.

Results

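The genes described here are the protein-coding zinc finger genes with names of the form ZNF, ZFP, ZSCAN or ZKSCAN plus a number that lay outside chromosome 19 and had an H3K9me3 peak assigned to them in wild-type or SMARCA3-knockout 293T cells. Chromosome 16, the sex chromosomes and the block of chromosome 7 from 55200000 to 65000000 were also left out. There were 121 such genes among the 5037 protein-coding genes with a peak in either list: 106 named ZNF, 7 ZFP, 7 ZSCAN and 1 ZKSCAN. Both genotypes were the same human embryonic kidney line, 293T, and the study had 3 H3K9me3 ChIP and 3 input libraries of each, labelled WT and SMARCA3_KO. SMARCA3, now called HLTF, is a DNA translocase with a RING finger, and the series title names it as a ubiquitin ligase for histone H3 that regulates H3K9me3. The labels do not say whether the knockout cells were 1 clone or a pool. The data were 1 annotated peak list per genotype with no column per library, so library depth is unknown, differences between the lists could not be set against replicates, and no p-value was computed. The targeted gene had 0 peaks in its body in either list, and a peak list measures no expression, so the knockout was not checked here.

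H3K9me3 is the trimethylated form of a lysine in the tail of histone H3 and marks silent chromatin. Most genes with these names encode C2H2 zinc finger proteins, and many of those carry a KRAB domain, which binds TRIM28 and through it the methyltransferase SETDB1, so that H3K9me3 is laid down at the transposon or gene that the fingers recognise. The genes of this family are themselves known to carry H3K9me3, above all over the 3′ exon that encodes the row of fingers, where the zinc finger protein ZNF274 and the remodeller ATRX have been placed. Zinc finger genes share long similar stretches, and the labels do not say how reads that map to several places were treated.

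The mark stopped short of nearly all of their promoters, as it did of nearly all promoter windows in general. RefSeq promoter windows of 300 bp, from 250 bp before to 50 bp after the annotated start (GRCh38.p14), were found for 100 of the 121 genes, 135 windows in all. A WT peak reached a window of 1 gene, ZNF454, and a KO peak reached windows of 2, ZNF454 and ZNF354C, both of the zinc finger cluster in the distal long arm of chromosome 5. These 2 windows are shown with that of ZNF354B, a neighbour in the same cluster whose window was not reached, and that of ZNF678, the gene with the most peak bases, whose window was not reached either. Each is written 5′ to 3′ on the strand of the gene, with CG dinucleotides in capitals.
ZNF454 (chr5:178940948-178941247, + strand): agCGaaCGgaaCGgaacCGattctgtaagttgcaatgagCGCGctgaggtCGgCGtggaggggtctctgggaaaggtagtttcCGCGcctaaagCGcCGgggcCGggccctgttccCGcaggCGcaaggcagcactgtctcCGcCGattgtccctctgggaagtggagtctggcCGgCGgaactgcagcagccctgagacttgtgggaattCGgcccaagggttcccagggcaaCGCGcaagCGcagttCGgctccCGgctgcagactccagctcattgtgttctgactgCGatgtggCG
ZNF354C (chr5:179060123-179060422, + strand): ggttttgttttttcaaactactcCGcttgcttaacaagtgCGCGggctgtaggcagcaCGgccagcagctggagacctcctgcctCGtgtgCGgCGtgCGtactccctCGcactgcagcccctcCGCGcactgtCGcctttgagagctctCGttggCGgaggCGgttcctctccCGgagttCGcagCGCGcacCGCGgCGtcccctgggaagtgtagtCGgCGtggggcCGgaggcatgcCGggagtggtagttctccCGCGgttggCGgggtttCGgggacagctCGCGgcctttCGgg
ZNF354B (chr5:178859703-178860002, + strand): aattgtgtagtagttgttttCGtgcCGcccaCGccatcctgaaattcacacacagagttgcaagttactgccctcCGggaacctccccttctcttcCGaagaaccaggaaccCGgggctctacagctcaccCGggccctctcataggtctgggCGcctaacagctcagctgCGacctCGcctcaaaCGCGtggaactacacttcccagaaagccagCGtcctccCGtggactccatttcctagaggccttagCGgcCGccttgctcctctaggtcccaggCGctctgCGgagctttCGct
ZNF678 (chr1:227563306-227563605, + strand): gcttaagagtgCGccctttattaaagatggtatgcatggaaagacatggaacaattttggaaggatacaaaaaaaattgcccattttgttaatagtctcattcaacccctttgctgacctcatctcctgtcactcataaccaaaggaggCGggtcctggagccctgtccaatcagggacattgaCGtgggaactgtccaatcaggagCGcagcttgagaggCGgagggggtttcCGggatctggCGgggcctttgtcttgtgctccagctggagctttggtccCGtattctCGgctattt
The ZNF454 window was covered over 258 bp in WT and over all 300 bp in KO. Of the ZNF354C window, 186 bp were covered in KO, while the nearest WT peak lay 1848 bp away. The ZNF354B window was 585 bp from a WT and 321 bp from a KO peak, and the ZNF678 window 597 and 105 bp. The 4 windows held 27, 33, 19 and 9 CG dinucleotides in that order. The sequence CG, which reads the same on both strands, occurred in 97.8% of the 135 windows of these genes and in 96.0% of all 35116 windows of the table. The median was 22 per window here and 14 over all windows.

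The gap at the promoter was present also where the gene body was heavily marked. In WT, 22 of the 100 genes had peaks over at least 50% of their body. None of these 22 had a peak in the promoter window, and their nearest peaks began 281 to 7293 bp away, with a median of 783.5 bp. In KO, 32 genes had at least 50% of their body covered, 2 of them with a peak in the window, and the median distance was 620 bp. Over all 100 genes the median distance to the nearest peak was 6825.5 bp in WT and 2641.5 bp in KO. Peaks within 1 kb of the window were found for 19 genes in WT and 29 in KO, and within 5 kb for 46 and 61. For comparison, a peak met the window of 1 of 225 zinc finger genes of chromosome 19 in WT (0.444%) and of 13 in KO (5.78%). Of all single windows of the table, 0.245% and 0.632% were met. Those shares count windows and not genes, and the table was not chosen for genes with a peak, so they are not on equal terms. By the authors' labels, 7.30% of WT and 5.92% of KO peaks at the 121 genes were promoter peaks within 1 kb. These shares were 11.9% and 12.4% at chromosome 19 zinc finger genes, and 1.63% and 2.01% at other protein-coding genes of the same chromosomes.

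**Figure D1:**
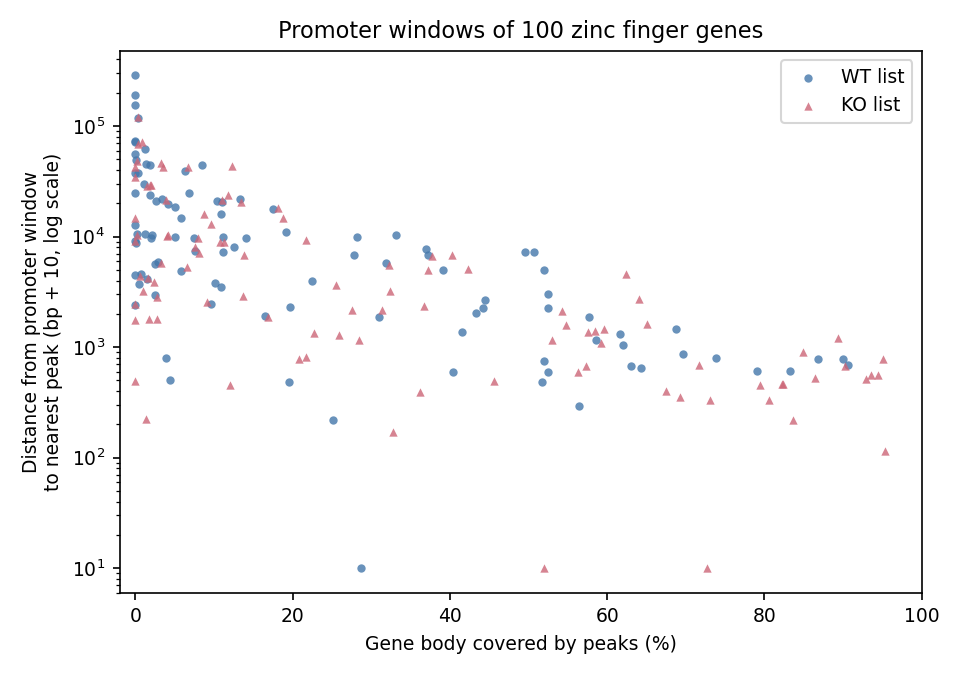
Each point is 1 of 100 zinc finger genes in the WT or the KO list, with the share of its body covered by peaks (%) on the x axis and the distance from its promoter window to the nearest peak (bp plus 10, log scale) on the y axis. Genes covered over 50% or more of their body lie 281 to 7293 bp from a WT peak, and only ZNF454 (WT and KO) and ZNF354C (KO) lie at 0 (drawn at 10).

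Read across the whole set, the mark dipped at the start and was highest just before the 3′ end, where the finger exon lies in most of these genes. In bins of 500 bp, peaks covered 0.461% of the bases in the lowest WT bin at the start and 0.893% in the lowest KO bin. Coverage 5 kb inside the gene was 13.4% in WT and 24.8% in KO. The highest bin near the end lay 1500 to 1000 bp before it in WT, with 33.5% covered, and 3500 to 3000 bp before it in KO, with 41.9% covered. At 5 kb past the end, coverage had fallen to 9.96% and 17.0%. The zinc finger genes of chromosome 19 had the same shape with a shallower dip in KO: their lowest bin at the start was 2.28% covered in WT and 8.24% in KO, and their highest bin near the end 39.6% and 62.7%.

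**Figure D2:**
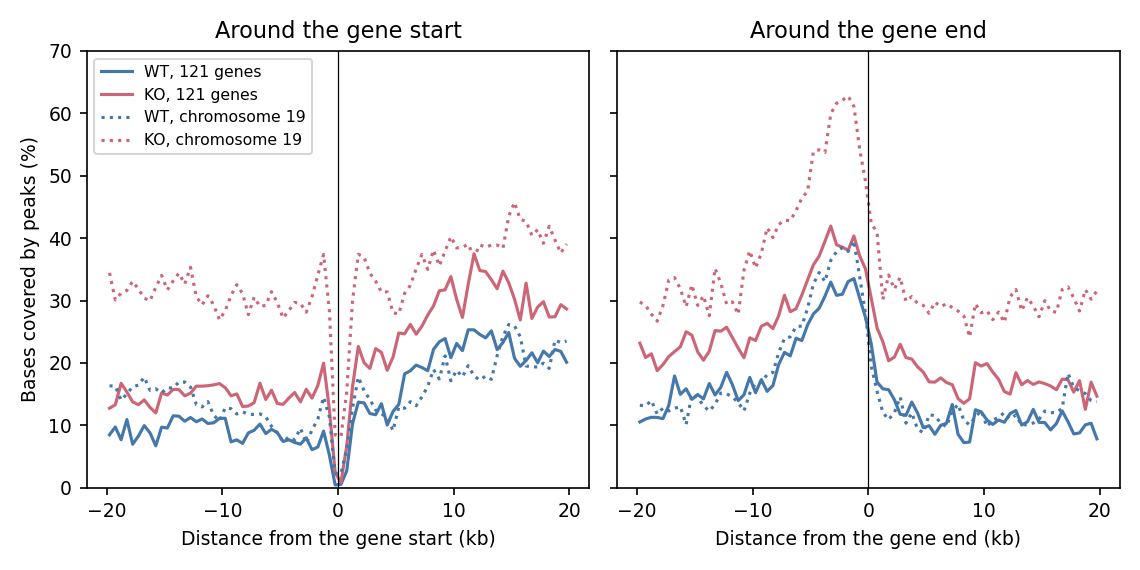
Percent of bases covered by peaks (y axis) in bins of 500 bp within 20 kb of the gene start and of the gene end (x axis, kb in the direction of transcription), for the 121 genes and for the zinc finger genes of chromosome 19, in each list. The curves for the 121 genes fall to 0.461% (WT) and 0.893% (KO) at the start and rise to 33.5% and 41.9% shortly before the end.

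Counted gene by gene, a WT peak lay in the last 3 kb of 56 genes (46.3%, Wilson 95% interval 37.6 to 55.1) and in the first 3 kb of 30 (24.8%, 18.0 to 33.2). In KO the counts were 62 (51.2%, 42.4 to 60.0) and 41 (33.9%, 26.1 to 42.7). These and later intervals treat genes or peaks as independent and cover counting only. The last 3 kb of these genes were 31.0% covered in WT and 38.0% in KO, the first 3 kb 8.79% and 14.3%, and whole bodies 9.52% and 13.4%. The body values pool bases, so long genes weigh most, while the 3 kb windows weigh genes alike. Taken per gene, the median body was covered over 10.9% in WT and 18.2% in KO. Other protein-coding genes with a peak on the same chromosomes were covered over 0.814% and 1.29% of their last 3 kb, and 0.612% and 1.06% of their first. By the start, end and strand of the assigned transcript in the authors' lists, 54.1% of WT and 53.0% of KO bases inside it lay beyond its midpoint. The shares were 34.4% and 35.3% in those other genes and 55.1% and 49.7% on chromosome 19. When peaks below a fold enrichment of 3.69 were dropped, the median of the pooled lists in the authors' values, the first 3 kb held a peak in 13 genes in WT and 20 in KO, and the last 3 kb in 47 and 54.

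Not every gene of the family was marked. RefSeq lists 237 protein-coding genes with such names on these chromosomes, and 120 of them were in the set (50.6%, 44.3 to 56.9), beside 4047 of 16571 other protein-coding genes there that had a peak assigned (24.4%, 23.8 to 25.1). Among the 117 that were not in the set, 8 had peak bases inside their body that the authors' table assigned to another transcript or to none. ZNF286B, the remaining gene of the set, is a transcribed pseudogene in RefSeq. Assignment is by nearest transcript, and 7 genes of the set, ZNF638 among them, had no peak base inside their RefSeq body in either list. Having a peak is what placed a gene in the set, so the sections below describe how much was covered, where, and how the lists differed.

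Peak bases were concentrated in few genes. In WT, 644 peaks were assigned to 102 of the genes and covered 756904 bases, and in KO, 726 peaks were assigned to 119 and covered 1090922. The 10 genes with the most bases in each list held 39.3% of WT and 35.8% of KO bases, and 28 genes in WT and 35 in KO had at least 10 kb. Mean peak width was 1175 bp in WT and 1503 bp in KO, wider than at zinc finger genes of chromosome 19 (785 and 1002 bp) and at other protein-coding genes of the same chromosomes (719 and 807 bp). The medians were closer: 578.5 and 654 bp here, 483.5 and 560 bp on chromosome 19, and 502 and 545 bp at those other genes. Peaks of 5 kb or more made up 4.04% of the peaks in WT (26) and 5.79% in KO (42), against 0.103% and 0.308% at those other genes.

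ZNF678, on chromosome 1 from 227563556 to 227679669, had the most peak bases in both lists. It had 47 WT peaks over 86289 bases and 17 KO peaks over 102240 bases. Fewer and longer KO peaks covered more of it: all peaks over its body, whatever gene they were assigned to, took in 79.0% of the body in WT and 95.4% in KO. Its widest WT peak, chr1:227644102-227666636, spanned 22535 bp with a fold of 6.44, and 1 KO peak over the same place, chr1:227643918-227666631, had a fold of 9.76. A second KO peak, chr1:227565249-227588712, was 23464 bp wide and met 12 separate WT peaks.

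ZNF721, near the start of the short arm of chromosome 4 (439988 to 499156), had 23 WT peaks over 41214 bases and 18 KO peaks over 51741. The widest KO peak of the set lay here, chr4:432879-464604, 31726 bp wide. It met 8 WT peaks and ran past the 3′ end of the RefSeq body, but lay within the authors' transcripts, which reach to 425815. The part of ZNF721 nearest its start held short, separate peaks in both lists, and 55.9% of the body was covered in WT and 72.9% in KO.

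ZNF717, on chromosome 3 from 75694701 to 75785549, had 26 peaks in each list. They covered 23131 bases in WT and 44565 in KO, the largest gain in assigned bases of any gene in the set (21434). Naming bears on this rank. All peaks over the body covered 33544 and 52035 bases here, and 91719 and 110721 at ZNF678, a larger gain. The widest peak named ZNF717 was 6172 bp in WT and 10752 bp in KO (chr3:75735796-75746547, fold 10.2). That KO peak also met a WT peak named MIR4273, 43303 to 50776 bp from the gene start, wider than any WT peak named ZNF717. Body coverage was 36.9% and 57.3%. Of the peaks over the body, 9 of 35 in WT and 8 of 33 in KO carried the name of the microRNA gene MIR4273 or no gene name in the authors' table. They are in the coverage and not in the peak counts or assigned bases.

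**Figure D3:**
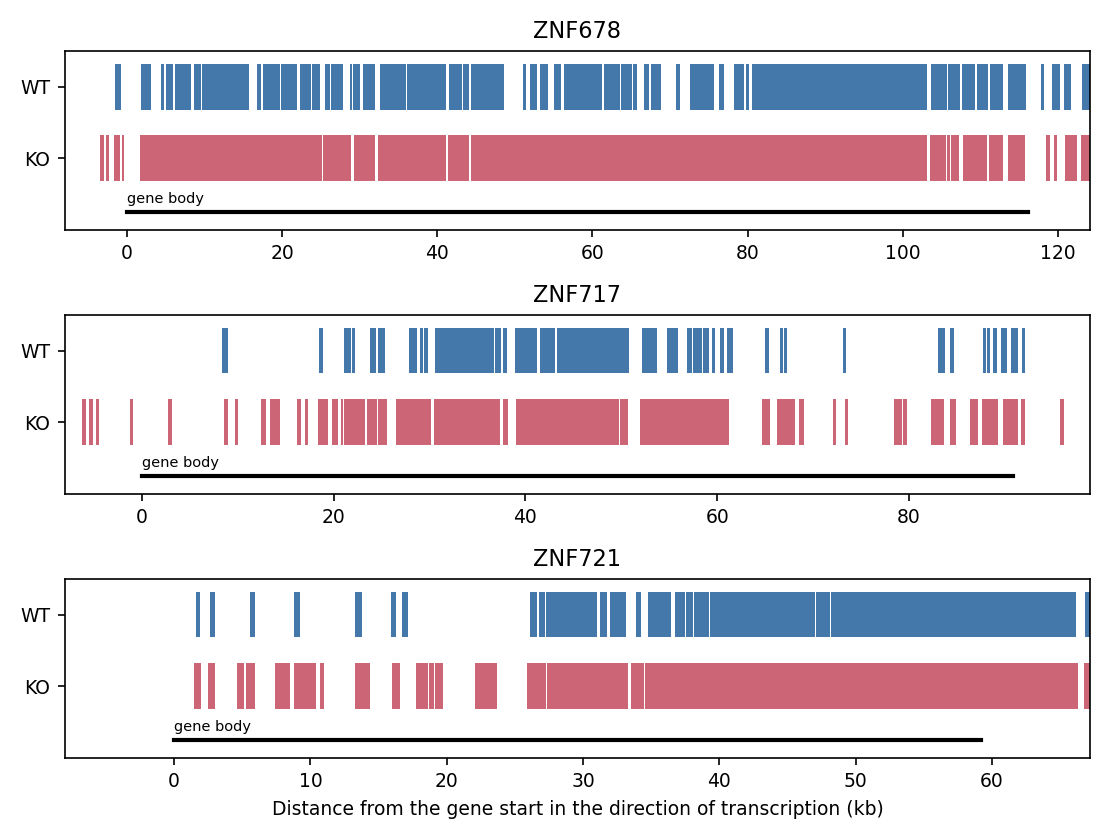
Peaks of the WT and KO lists drawn to scale along ZNF678, ZNF717 and ZNF721, with the distance from the gene start in the direction of transcription (kb) on the x axis and the RefSeq gene body as a black bar; every peak within 8 kb of the body is drawn. Separate WT peaks stand where single wide KO peaks run, and body coverage goes from 79.0% to 95.4%, from 36.9% to 57.3% and from 55.9% to 72.9%.

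The same pattern of fewer peaks over more bases recurred. It was seen in 27 of the 121 genes (22.3%), beside 17.1% of chromosome 19 zinc finger genes and 9.07% of all listed protein-coding genes. Only a gene with at least 2 WT peaks can show it. The 121 genes had more WT peaks per gene (644 at 102 genes) than all listed genes (16876 at 4212), so these shares are not on equal terms. ZNF782 on chromosome 9 went from 17 peaks over 26989 bases in WT to 9 over 34991 in KO. ZNF84 went from 10 peaks over 22640 bases to 5 over 25257, and ZNF268 from 13 over 20681 to 10 over 32810. Of the KO peaks, 125 of 726 (17.2%) met at least 2 WT peaks, and 45 of 644 WT peaks (6.99%) met at least 2 KO peaks. At other genes of these chromosomes the KO share was 9.82%, and at chromosome 19 zinc finger genes 12.0%.

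Most places marked in WT were also marked in KO. Of the WT peaks, 589 of 644 met a KO peak (91.5%, 89.0 to 93.4), where 81.9% of WT peaks at all protein-coding genes did. Of the KO peaks, 414 of 726 met a WT peak (57.0%, 53.4 to 60.6), near the 54.9% for all protein-coding genes. On chromosome 19 the values were 94.9% and 38.2%, beside a KO to WT ratio of peaks of 1.72 there and 1.13 here. The difference was not tested. Within 1 kb, 98.1% of WT and 72.7% of KO peaks had a counterpart. With an overlap of at least 50% of both peaks, 35.9% and 31.7% had one. A meeting by 1 bp is easier for wide peaks, and the peaks here were wider on average than at all protein-coding genes.

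Most of the 121 genes had more peak bases in KO, by about as much as genes in general. The KO to WT ratio was 1.13 for peaks and 1.44 for bases, while the other protein-coding genes of the same chromosomes had 1.29 and 1.44, and zinc finger genes of chromosome 19 had 1.72 and 2.19. For the whole lists, intergenic peaks included, the ratios were 1.39 and 1.59. Bases were more numerous in KO at 109 genes (90.1%, 83.5 to 94.2), where 77.7% of all listed protein-coding genes had more. They were less numerous at 12 (9.92%, 5.76 to 16.5), where 22.3% had fewer. As given above, the 121 genes had more WT peaks per gene than all listed genes. These shares, and those set below beside all protein-coding genes, are therefore not on equal terms. In lists of equal length 89 genes had more KO bases and 25 fewer. Among peaks at or above the pooled median fold, 70 had more and 25 fewer. The shares over all protein-coding genes were not computed in these settings, so the contrast with the background was not followed there. In the 100 genes of both lists the ratio had a median of 1.39 and quartiles of 1.15 and 1.96, and it ran from 0.639 in ZNF277 to 8.71 in ZNF232. The median was 1.39 over all protein-coding genes in both lists and 2.05 over the chromosome 19 zinc finger genes. At least 2-fold more bases were counted in 23 of these 100 genes (23.0%, 15.8 to 32.2), near the background of 24.1%, and at least 2-fold fewer in 0, against 3.13%. At 1.5-fold there were 45 genes with more, against a background of 44.2%, and 1 with fewer, against 6.62%. At 3-fold there were 15 with more and 0 with fewer, against 9.98% and 1.14%. The excess of peaks in KO turned over when the lists were matched: the ratio of peaks was 0.866 with the KO list shortened to the length of the WT list by q-value, and 0.906 for peaks at or above the pooled median fold, while the ratio of bases was 1.34 and 1.39.

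**Figure D4:**
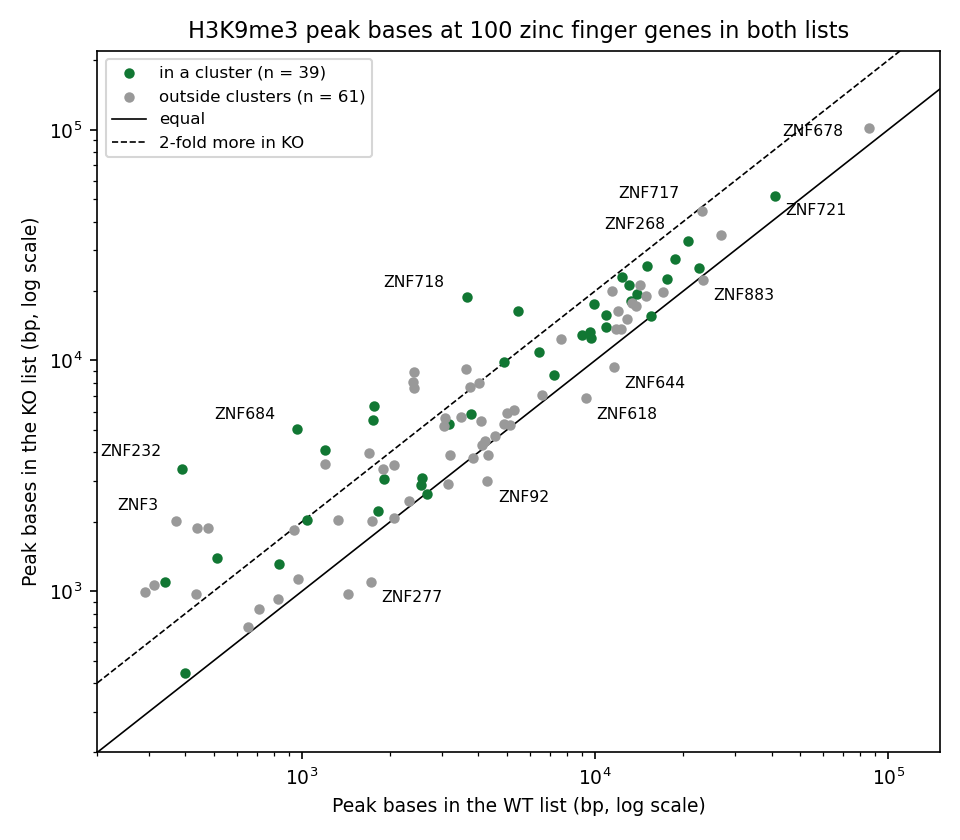
Peak bases assigned to each of the 100 zinc finger genes present in both lists, WT on the x axis and KO on the y axis (bp, log scales), coloured by whether the gene lies in a cluster of 3 or more; the solid line marks equal values and the dashed line 2-fold more in KO. Points lie above the solid line for 90 genes and on or above the dashed line for 23.

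The largest gains in assigned bases after ZNF717 and ZNF678 were in ZNF718 (3656 in WT, 18840 in KO), ZNF268, ZNF124 (5475 and 16340) and ZNF695 (12315 and 22977). ZNF718, beside the telomere of 4p, also had the largest increase in the number of peaks, from 6 to 34, and its peaks covered 5.07% of the body in WT and 25.5% in KO. ZNF124 and ZNF695, neighbours in the distal long arm of chromosome 1, went from 11 to 25 and from 16 to 26 peaks. Each of these 6 genes also had more KO bases in the lists of equal length and among peaks past the pooled median fold or q-value. Counted over bodies, whatever the name of the peak, the order differed. ZNF184 went from 26994 to 44222 covered bases, a larger gain than that of ZNF718 (3948 and 19879).

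Losses were small and scattered. ZNF618 on chromosome 9 had 8 peaks over 9308 bases in WT and 6 over 6861 in KO, a difference of -2447. ZNF644, whose protein is known to work with the H3K9 methyltransferase G9a, had 13 peaks over 11614 bases in WT and 7 over 9364 in KO, a difference of -2250. ZNF92 had 6 peaks over 4290 bases and 2 over 3011, and ZNF277 had 3 peaks in each list over 1722 and 1100 bases. ZNF883 had 18 WT peaks over 23259 assigned bases and 21 KO peaks over 22408. These assigned peaks follow the authors' transcript, which ends at 113050043, and all of them start beyond the RefSeq body, which ends at 113012192, so no body coverage is set beside them. The count rests on assignment too: the WT peak chr9:113047149-113055909 carries the name ZNF883 and met 2 KO peaks, chr9:113046326-113050481 named ZNF883 and chr9:113050534-113056124 named ZFP37.

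There were 19 genes with a KO peak only (15.7%, 10.3 to 23.2), near the 16.4% for all listed protein-coding genes, and 2 with a WT peak only (1.65%, 0.455 to 5.83), where the background was 5.06%. Those with a KO peak only had little of it: a median of 790 bases, and a single peak in 11 of 19. ZFP37 had the most, 6245 bases in 2 peaks, but its body was 90.0% covered in WT and 94.4% in KO by peaks under either name. ZNF292, a large DNA-binding protein mutated in neurodevelopmental disorders, had 4 KO peaks over 3612 bases, and ZNF2 had 7 over 2530. Neither had a WT base in its body. In all, 14 of the 19 had no WT base in the body and no WT peak meeting their KO peaks. The 2 genes with a WT peak only, ZNF169 (657 bases) and ZNF318 (346 bases), had 1 peak each.

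Genes in clusters were more covered than those outside. Genes were grouped where at least 3 lay with at most 500 kb between neighbours, which gave 10 clusters with 41 genes and left 80 outside, some of them in pairs such as ZNF510 and ZNF782. Peaks covered 24.9% of clustered bodies in WT and 37.4% in KO, and 6.62% and 8.85% of the others. The KO to WT ratio of assigned bases was 1.54 in clusters and 1.37 outside. Fewer KO bases were counted in 1 clustered gene, ZSCAN12 (2661 and 2636 bases), and in 11 of the 80 others, and a KO peak alone in 2 and 17. The last 3 kb were 48.0% covered in WT and 58.8% in KO in clusters, and 22.3% and 27.3% outside.

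The distal cluster of the chromosome 12 long arm (132918306 to 133214832) was the most continuous, with 59.7% of its bodies covered in WT and 82.5% in KO. It holds ZNF605, ZNF26, ZNF84, ZNF140, ZNF891, ZNF10 and ZNF268. ZNF10 is the source of the KRAB domain used most widely in engineered repressors. All 7 had more KO bases, the cluster's total going from 104344 to 145980, while its peaks went from 87 to 72. Counts per gene shift with naming here, where the bodies of ZNF140 and ZNF891 overlap by 2650 bp. ZNF891 had 6 WT peaks over 9592 bases and 1 KO peak over 13309, chr12:133099711-133113019. That KO peak met 5 WT peaks, 2 of them named ZNF140, and the other 3 WT peaks of ZNF891 met KO peaks named RPL23AP67. ZNF140 had 15530 and 15623 assigned bases, while all peaks over its body covered 64.3% of it in WT and 86.4% in KO. ZNF26 had 15073 bases in 20 WT peaks and 25669 in 21 KO peaks.

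The chromosome 5 cluster (178711512 to 179083977) came next, 45.9% covered in WT and 65.2% in KO. It holds ZNF354A, known as a kidney zinc finger gene, with ZNF354B, ZFP2, ZNF454, ZNF879 and ZNF354C. Its peaks numbered 72 and 73, and its bases went from 85521 to 121861. The ratio of its 6 genes was even, from 1.29 to 1.63. ZFP2 went from 18726 bases to 27430, and ZNF354B from 17556 to 22595. At or above the pooled median fold, the KO minus WT difference at ZNF354B was -2042.

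In the chromosome 17 cluster of ZFP3, ZNF232 and ZNF594, coverage was uneven between neighbours. Peaks took in 73.9% of ZNF594 in WT and 84.9% in KO, and 50.7% and 62.4% of ZFP3. ZNF232, between them, was covered over 3.92% in WT and 20.8% in KO, and its 389 WT and 3387 KO bases made the highest ratio of the set. The chromosome 4 cluster next to the telomere (ZNF595, ZNF718, ZNF732, ZNF141, ZNF721) went from 45 to 83 peaks and from 18.9% to 34.6% covered. On chromosome 1, the trio of ZNF695, ZNF669 and ZNF124 went from 17.4% to 35.7%, with a ratio of bases of 2.08, the highest of the 10 clusters. The trio of ZFP69B, ZFP69 and ZNF684 went from 28.8% to 44.1%, with 7224 and 8629 bases in ZFP69B and 964 and 5028 in ZNF684. In the lists of equal length, the KO minus WT difference at ZFP69B was -57.

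Other clusters were thinly marked. The ZNF786, ZNF398 and ZNF212 cluster of 7q was covered over 1.86% in WT and 3.35% in KO, with ZNF786 at 512 and 1392 bases and ZNF398 at 833 and 1308. The ZNF248, ZNF25, ZNF33A and ZNF37A cluster of chromosome 10 was at 4.60% and 7.10%. ZNF37A, at 2553 and 2882 bases, turned to a difference of -159 in the lists of equal length, and ZNF248 had 1810 and 2224. The ZNF487, ZNF239 and ZNF485 cluster on the other arm was at 13.4% and 18.7%, with 6444 and 10899 bases in ZNF239 and 3767 and 5884 in ZNF485. On chromosome 6 the cluster of ZNF165, ZSCAN31, ZSCAN12 and ZSCAN23, proteins that mostly carry a SCAN domain, was at 7.83% and 10.8%. ZSCAN31 had 3181 and 5302 bases there. In the same stretch 6 further genes had no assigned peak in either list, ZKSCAN3, ZKSCAN4, ZKSCAN8, ZSCAN16, ZSCAN26 and ZSCAN9.

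**Figure D5:**
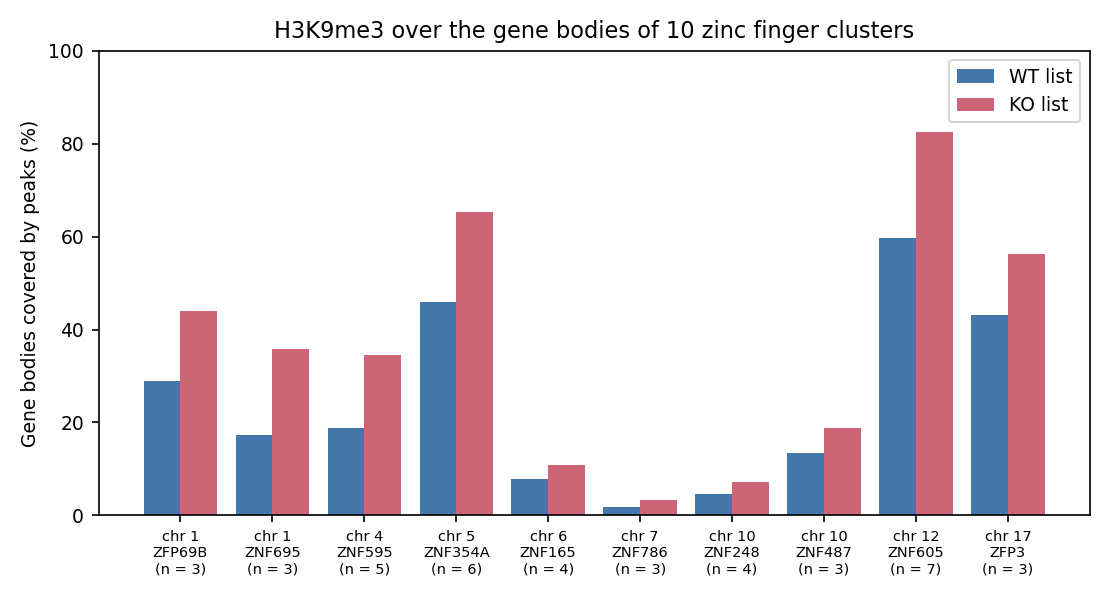
Percent of the gene bodies covered by peaks (y axis, from 0) in the WT and KO lists for each of the 10 clusters of 3 or more zinc finger genes (x axis, named by chromosome and first gene, with n the number of genes). Coverage is higher in KO in every cluster and ranges from 1.86% to 59.7% in WT and from 3.35% to 82.5% in KO.

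The gain was not limited to the gene bodies. In the 100 kb on either side, outside the bodies of these genes, peaks covered 3.25% of WT and 5.54% of KO bases, which is a ratio of 1.70. In the bodies they covered 9.46% and 13.3%, which is a ratio of 1.41. In clusters the flank ratio was 2.02 and the body ratio 1.51, and outside clusters 1.56 and 1.34. The body was more covered than its flanks in 93 of 121 genes in WT and 95 in KO. Split by the mean coverage of the body over both lists, the ratio was 1.29 in the 31 genes at 50% or more, 1.65 in the 37 from 10% to 50% and 1.39 in the 53 under 10%. These groups were formed from the same coverages as the ratios. A body cannot be covered beyond its length, which limits the ratio in the most covered genes. That limit also bears on the body ratios set beside the flank ratios.

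The peaks of highest fold, the authors' value, were in part at different genes in the 2 lists. The highest WT folds were 10.1 at ZNF184 (chr6:27447887-27458062), 10.0 at ZNF354B (chr5:178881104-178887697) and 9.92 at ZNF268 (chr12:133200488-133205135). In KO they were 11.2 at ZNF184 (chr6:27447344-27462273), 10.6 at ZNF594 (chr17:5176608-5188651) and 10.2 at ZNF268 (chr12:133200454-133208974). The maximum fold at ZNF594 was 3.84 in WT, and at ZNF721 it was 9.84 in WT and 6.73 in KO. ZNF184 had 6 peaks over 17027 bases in WT and 8 over 19798 in KO, and ZNF594 had 3 over 10903 and 2 over 13930. The peaks in the top 1% of fold of each list included 19 at 18 of the 121 genes in WT, or 2.95% of their peaks, and 33 at 28 genes in KO, or 4.55%. Median fold was 3.84 in WT and 3.66 in KO, near the medians of the whole lists, 3.77 and 3.59.

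Of 22 genes for the machinery of H3K9me3 at zinc finger genes, 6 had an assigned peak in WT and 9 in KO. All 9 had more assigned bases in KO, where 77.7% of all listed protein-coding genes did. ZNF274, itself a zinc finger gene of chromosome 19, had 17 peaks over 14556 bases in WT and 12 over 29888 in KO. ATF7IP, a partner of SETDB1, had 16 and 28 peaks over 12058 and 20004 bases. SETDB1 had 0 and 3 peaks, over 1053 bases in KO, and ATRX had 8 and 9 over 7136 and 7357 bases, with 7784 and 7729 bases covered in its body. TRIM28 had none in either list. These counts say where the mark lay and not how much of any protein was made.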

How the data were processed

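H3K9me3 ChIP-seq of WT and SMARCA3_KO 293T cells had 3 ChIP and 3 input libraries per genotype, named biological triplicates in the labels' protocols. Alignment with HISAT2 to hg38 is named in the submitters' processing notes; for the peak caller, its settings, its use of the inputs and the joining of replicates, nothing is given in the sources used here. The 2 deposited lists give, per the file headers, a fold enrichment (read as a ratio of ChIP over background) and a q-value for each peak, both the authors' values, with an assigned transcript and the distance to it. The depth behind them is unknown.

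The genes and gene lists were chosen with earlier results of these data known. Peak bases are End minus Start plus 1, positions being counted from 1, summed over peaks carrying a gene's name. Coverage of bodies, ends, 100 kb flanks and promoters used all peaks and RefSeq coordinates (GRCh38.p14), which overlapped the files' for 120 of 121 genes (ZNF318 kept its transcript in the files). Peaks were shared where they met by at least 1 bp. Shares have Wilson 95% intervals. Lists were set side by side without a test. The counting was tested on peaks of the WT list that were shortened, then widened at randomly chosen genes or moved. That test did not cover wide or merging peaks.

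Genes named were ZNF717 and ZNF678, the 10 with the most bases, the 6 largest gains and 6 largest losses, up to 3 with a peak in 1 list only, those of the 3 highest folds per list, and up to 2 per cluster; further genes were named after their values were seen, as extremes, as neighbours or as members of a cluster. Alternatives were a minimum fold (pooled median 3.69), a maximum q-value (pooled median 1.71e-07), KO shortened to 46898 peaks by q-value, other overlaps, assignment by body, other fold calls, other end windows and leaving out ZNF717 and ZNF678. A split by KRAB domain, SCAN domain or number of fingers was not analysed here. Python 3.11.15, pandas 2.3.3 and statsmodels 0.14.6 were used.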

Additional observations from a re-analysis of the deposited data

How the results depend on the processing

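Of 98 alternative values, 66 kept their direction and stayed within 1.5 times (counts) or within the Wilson interval (shares and ratios, the ratio's taken over its number of peaks). The end and promoter windows and their alternatives were chosen after seeing the data. At or above the pooled median fold, the ratio of peaks reversed to 0.906, 70 genes had more KO bases, 25 fewer and 1 at least 2-fold fewer. There, 79.9% (WT) and 63.1% (KO) of the peaks were shared, 60.0% of WT bases lay beyond the midpoint, a peak lay in the first 3 kb of 13 genes in WT and 20 in KO, and promoter windows were reached in 0 and 0. In lists of equal length the ratio of peaks reversed to 0.866, 25 genes had fewer KO bases and 1 at least 2-fold fewer, 85.4% and 66.1% of peaks were shared, and 1 promoter was reached in KO. At or below the pooled median q-value the ratios were 1.46 for peaks and 1.62 for bases, 93.9% and 44.9% of peaks were shared, the first 3 kb held a WT peak in 17 genes, and 1 promoter was reached in KO. Overlap of at least 50% of both peaks gave 35.9% and 31.7%, and a distance of up to 1 kb 98.1% and 72.7%. A call at 1.5-fold gave 45 genes higher and 1 lower, and at 3-fold 15 higher. For the shortened or thresholded lists, no share over all protein-coding genes was computed. A first window of 1 kb held a peak in 11 genes in WT and 15 in KO. The cause of these shifts was not tested, beyond the fewer peaks that each threshold keeps. Leaving out ZNF717 and ZNF678 moved none of these values past those limits. No paired analysis was possible because the lists carry no column per library, and for the same reason no replicate could be left out. With 1 list per genotype, unknown depth and unstated calling, a longer list and a wider mark cannot be told apart.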

Other observations

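C2H2 zinc finger genes of other families, most of which lack a KRAB domain, were also found in the lists. Among RefSeq protein-coding genes of these families on the same chromosomes, 8 of 37 ZBTB genes had a peak in either list (21.6%, Wilson 95% interval 11.4 to 37.2), as did 5 of 14 PRDM genes (35.7%, 16.3 to 61.2), 4 of 23 KLF and SP genes (17.4%, 6.98 to 37.1), 1 of 8 ZIC and GLI genes and 1 of 7 ZFHX, ZEB and SALL genes. The intervals printed all take in the 24.4% of other protein-coding genes on these chromosomes that had a peak assigned. ZBTB20, a repressor with a role in liver and brain development, had 10 WT and 20 KO peaks. SP4, a brain-enriched relative of SP1, had 12 and 14, and KLF12 had 8 and 7. PRDM9, the meiotic histone methyltransferase that places recombination, had 1 in each. These genes were named after their values were seen.

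By chromosome, the KO to WT ratio of bases at the 121 zinc finger genes ran from 1.17 on chromosome 9 (10 genes, 99075 and 115841 bases) to 2.44 on chromosome 2 (6 genes, 6043 and 14735). Chromosome 8 had 2.14 over 6 genes, each with more bases in KO. ZNF7 and ZNF16, near the end of its long arm, were covered over 20.6% and 11.7% of their bodies in WT and over 45.9% and 34.8% in KO.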
